A study of Mus musculus with 15 samples.

Results

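Notch signalling genes were followed in 15 RNA-Seq libraries of mouse pancreas. The mice carried a transgene of HPK1, a transgene of its kinase-dead form M46, or neither. The genes were the ligands Jag1, Jag2 and Dll4, the receptors Notch1, Notch2, Notch3 and Notch4, and the target genes Hes1, Hey1 and Heyl. They were listed by name as Notch pathway genes active in acinar metaplasia, with earlier results of these data known. All 10 are listed among the 15175 genes of the table of MC mice and among the 49585 genes of the table of HC mice and of the table of KC and KMC mice.

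Notch signalling passes between neighbouring cells. A Jagged or Delta-like ligand on the sending cell binds a Notch receptor on its neighbour, the receptor is cut first by an ADAM protease and then by γ-secretase, and the freed intracellular domain enters the nucleus, binds the DNA-binding protein RBPJ and switches on the Hes and Hey repressors. In the adult pancreas the pathway is known from ductal and centroacinar cells and from acinar cells that undergo acinar-to-ductal metaplasia, and also from vessels, where Dll4 and Notch4 mark endothelium and Notch3 and Heyl mark pericytes and smooth muscle. Acinar cells themselves express RBPJL, a relative of RBPJ that works in the acinar PTF1 complex and does not bind Notch.

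All mice were C57BL/6 and each library held RNA pooled from 3 mice. MC mice (3 libraries, age 2 months) carried M46 and Bac-cre, and their 3 controls of the same age are labelled B control. HC mice (3 libraries, age 4 months) carried HPK1 and Bac-cre, and their 2 controls of the same age are labelled WT. KC mice (2 libraries, age 15 months) had Bac-cre among their alleles, and KMC mice (2 libraries, age 9 months) carried M46 in addition. Bac-cre is a tamoxifen-inducible Cre driven by the acinar elastase I promoter, so recombination was directed to acinar cells. The labels name pancreas as the tissue of all libraries, whereas the study describes the sequenced KC and KMC samples as PDAC, pancreatic ductal adenocarcinoma. The study describes cerulein, a cholecystokinin analogue used to bring on acute pancreatitis, as given to MC, HC and littermate control mice before sequencing, although its methods also give PBS to littermate controls in general. It gives the cerulein-treated mice that were sequenced an age below the 4 months on the labels of HC and its controls. It does not state whether the aged KC and KMC mice that were sequenced had received cerulein. The labels do not say whether the WT controls of HC carried Cre or received tamoxifen.

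Total counts ranged from 29766575 to 38745907 per library. Levels are CPM, counts per 1e+06 counts of a library, scaled by the TMM method, and the upper limit set by a count of 0 (3 counts, for counting error only) was 0.0357 to 0.204 CPM. The Notch genes had 12 to 5755 counts each in a library, so no library was at this limit for any of them. Map4k1, the gene that encodes HPK1, was at 8.32, 6.79 and 7.51 CPM in MC against 3.80, 4.14 and 2.34 CPM in its controls, and at 5.92 and 11.4 CPM in KMC against 0.545 and 1.55 CPM in KC. The libraries labelled HC had 7.33, 5.05 and 7.93 CPM of it against 15.4 and 11.5 CPM in the controls. A gain would go with the label of an added HPK1 transgene, if reads of the transgene were counted on Map4k1. Whether they were is not stated. The paper reports expression of HPK1 in acinar cells and high HPK1 kinase activity in pancreata of HC mice. Directions below are those of the libraries as labelled. Map4k1 did not pass the test in any of the comparisons (quasi-likelihood test of edgeR, p adjusted after Benjamini and Hochberg over all genes, adjusted p = 0.110, 0.145 and 0.0796 for MC, the libraries labelled HC and KMC). The libraries differed in sex by their Xist and Ddx3y counts: HC 3 was the male library among 4 female ones, and both KC libraries were male and both KMC libraries female, so that sex, age and genotype cannot be told apart between KMC and KC. Neither gene is listed in the MC table, so the sex of its libraries was not read. KC 1 stood apart, with 877 counts on all 10 Notch genes and a TMM factor of 0.486. A list of 11 acinar genes such as Cela1 and Cpa1 took 14.3 to 38.9% of counts in the MC table and the KC and KMC table. In the HC table, controls included, these genes took 3.53 to 5.55%.

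Per length of transcript, Hes1 was the most abundant of the Notch genes in every group. Its level was 15.5 ± 2.21 CPM per kb in MC (SD, n = 3), 8.56 ± 2.37 in MC controls (SD, n = 3), 48.5 ± 6.99 in the libraries labelled HC (SD, n = 3), 47.6 ± 1.77 in their controls (SD, n = 2), 4.14 ± 0.636 in KC (SD, n = 2) and 7.23 ± 3.08 in KMC (SD, n = 2). Hes1, a repressor that is the classical direct target of Notch, stood clear of the next gene in the MC and HC tables, whereas in KC and KMC it overlapped with its neighbour in the order. Jag1, a ligand that is widely expressed in epithelium and vessels, was second in MC, in the libraries labelled HC and in KC, with 4.25, 14.1 and 2.75 CPM per kb. It overlapped with the gene after it in all of these groups. Notch2 was second in the controls of HC with 14.3 CPM per kb and in KMC with 4.91 CPM per kb, and Heyl was second in MC controls with 5.12 CPM per kb. The lower end of the order was held by Dll4, Jag2 and Hey1 in every group of the MC and KMC tables, and neighbours among these overlapped in all of those groups. In the HC table Dll4 and Hey1 were the lowest of the 10, at 2.24 and 2.39 CPM per kb in the controls. Mean levels in the HC table stood above those of the other tables for every gene but Heyl, and since the tables were made and scaled separately, this was not tested.

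**Figure D1:**
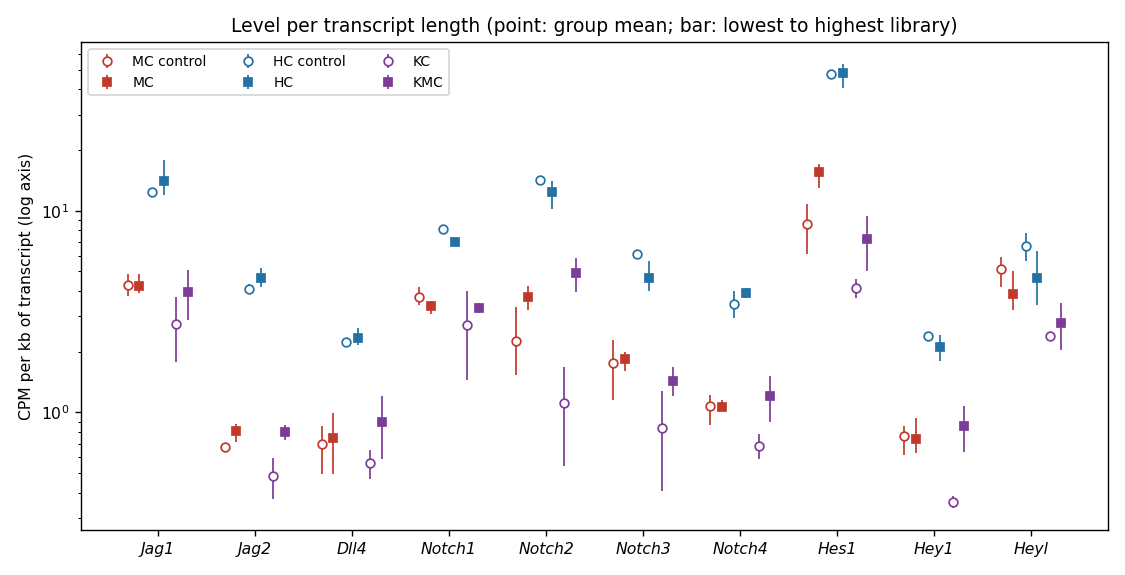
Level of each Notch gene per kb of its longest coding transcript, in TMM-scaled CPM per kb on a log axis, as the group mean (open circles for controls and KC, squares for MC, HC and KMC) with a bar from the lowest to the highest library. Hes1 is highest in every group, from 4.14 CPM per kb in KC to 48.5 CPM per kb in the libraries labelled HC.

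In MC mice after cerulein, the comparison asked whether kinase-dead HPK1 in acinar cells went with another level of Notch components. Of the 10 genes, 0 were called differentially expressed (edgeR, adjusted p of at most 0.05 and absolute log2 fold change of at least 1), where 0% of all 13902 genes tested were called. With DESeq2 the count was also 0, against 3.13% of all genes. At an unadjusted p under 0.05, 2 genes were higher, Hes1 and Notch2, against 9.2% of all genes, and 0 were lower, against 5.46%. Across the 10 genes the median log2 fold change was 0.02, beside -0.02 for all genes tested, with 5 above 0 and 5 below.

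The largest difference among them was that of Hes1. MC 1, MC 2 and MC 3 had 19.1, 25.1 and 24.1 CPM of Hes1, and the controls had 12.8, 15.9 and 8.99 CPM. Every MC library was thus above every control. The log2 fold change was 0.85 ± 0.22 (SE), a ratio of 1.81, with adjusted p = 0.170 in edgeR. Notch2, a receptor known from pancreatic progenitors and duct cells, had 33.9, 44.4 and 39.6 CPM in MC and 20.2, 34.9 and 16.0 CPM in controls. Control 2 lay above MC 1, so the groups overlapped. The log2 fold change was 0.73 ± 0.28 (SE), with adjusted p = 0.300 in edgeR. Control 2 decided the calls: without it, Notch2 had a log2 fold change of 1.11 with adjusted p = 0.0273 and Hes1 of 1.06 with adjusted p = 0.0363 in edgeR, so that 2 of the 10 genes were called, while 718 of 14129 genes (5.08%) were called in all. Without any other single library neither gene was called.

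Jag2, a second Jagged ligand, had 4.29, 4.47 and 3.63 CPM in MC and 3.54, 3.54 and 3.28 CPM in controls. These groups did not overlap either, with a log2 fold change of 0.26 ± 0.18 (SE) and adjusted p = 0.493 in edgeR. Groups that did not overlap, with MC higher, were found for 2 of the 10 Notch genes and for 10.9% of all genes, and with MC lower for 0 of the 10 and for 9.89% of all genes. Notch1, the most studied of the receptors, had 32.9, 34.0 and 29.1 CPM in MC and 39.5, 34.5 and 32.3 CPM in controls, which overlap. Its log2 fold change was -0.15 ± 0.12 (SE), and the sign turned when libraries were scaled by their total alone (0.16) or by their total without acinar genes (0.03). Heyl, a Hey-family repressor, had 22.9, 14.8 and 14.7 CPM in MC and 23.9, 19.1 and 26.8 CPM in controls. MC 1 lay within the range of the controls, and the log2 fold change of -0.41 ± 0.21 (SE) had an adjusted p of 0.396 in edgeR. The log2 fold changes of Notch3, Notch4, Jag1, Dll4 and Hey1 lay between -0.04 and 0.10, and all 5 overlapped between groups. Of these, Notch4, Jag1 and Hey1 changed sign under both scalings by library total.

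Markers of several other cell types moved with this comparison. All 7 fibroblast markers had log2 fold changes above 0, with summed levels of 1948 to 2850 CPM in MC and 997 to 2390 CPM in controls. All 7 macrophage markers were likewise above 0 (569 to 849 CPM against 250 to 527 CPM), as were all 9 mural markers tested (185 to 225 CPM against 95.7 to 202 CPM). The 12 endothelial markers summed to 281 to 333 CPM against 223 to 331 CPM, and 11 of them were above 0. The 7 ductal markers summed to 1288 to 1831 CPM against 1038 to 1767 CPM. They were split, with 4 above 0 and 3 below and a median log2 fold change of 0.07. No marker of these 5 lists was at 0 in any of the 15 libraries. Control 2 had the highest sum of the controls in all 5, and also the highest Hes1 and Notch2. Other lists moved further: all 6 T cell markers tested (median log2 fold change 2.18, summed 6.42 to 10.7 CPM against 1.57 to 2.59 CPM), all 5 B cell markers (median 3.72, 5.73 to 64.4 CPM against 1.44 to 3.22 CPM) and all 5 adipocyte markers (median 3.67, 48.2 to 126 CPM against 31.2 to 37.7 CPM) were above 0. Of 11 acinar genes 10 were below 0 (median -0.86), with 21.4 to 28.7% of counts against 26.1 to 35.0%. Per 1000 mural counts, Notch2 was higher in every MC library than in every control, Notch3 and Notch4 were lower and the others overlapped. Per 1000 endothelial counts Hes1 was higher, and per 1000 ductal counts Hes1 and Notch2 were, while the others overlapped. No share of all genes was computed on these scales. The part of these lists in the values of Hes1 and Notch2 was not tested, and in bulk RNA fewer cells of a type and less RNA per cell cannot be told apart.

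**Figure D2:**
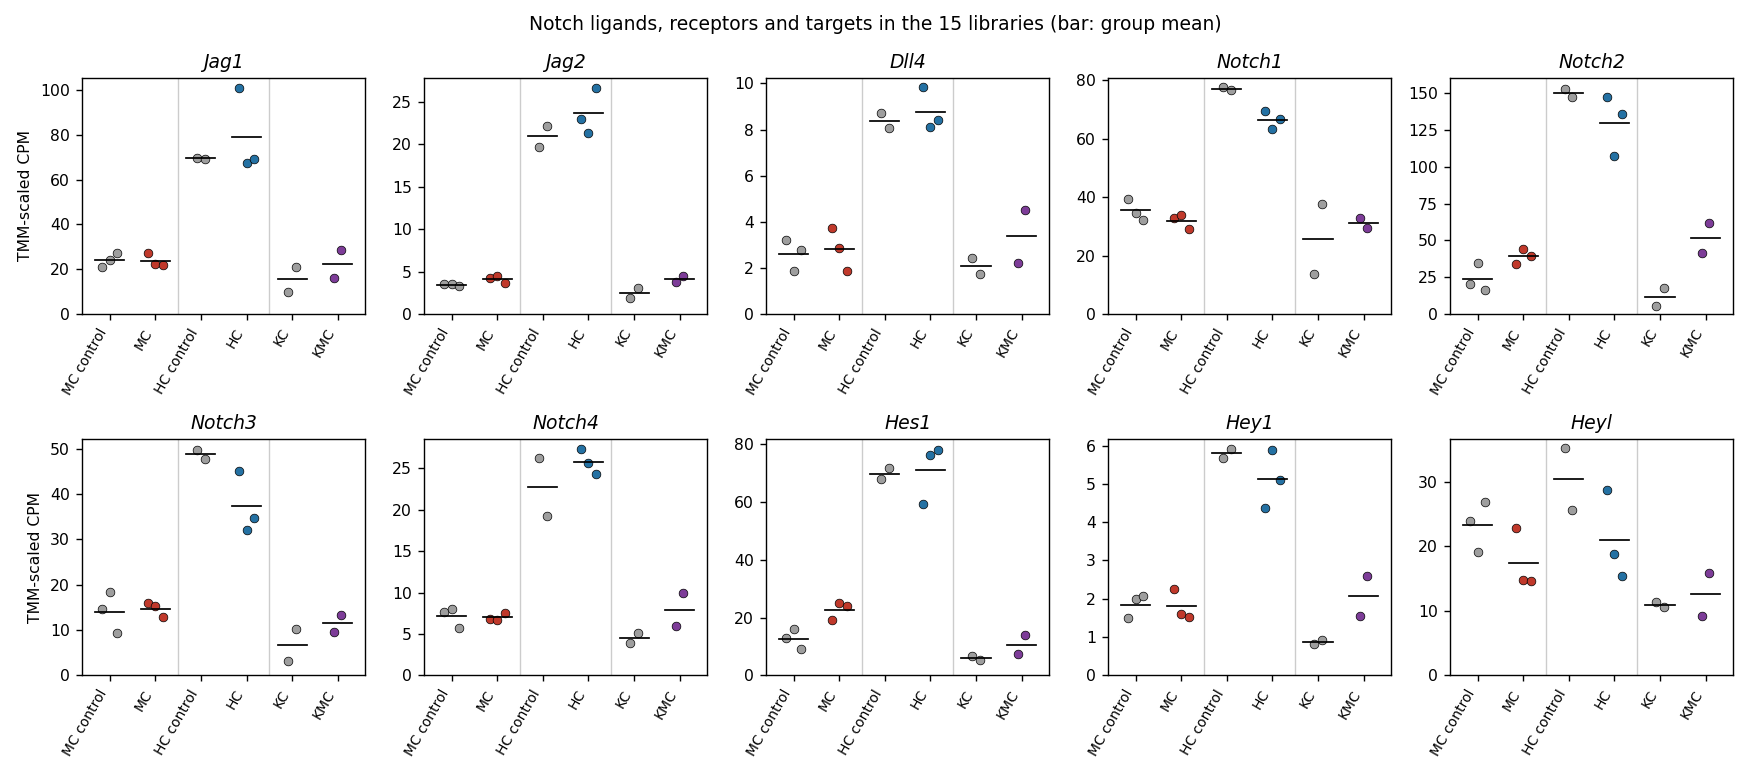
TMM-scaled CPM of each Notch gene (linear axes from 0, 1 panel per gene) in all 15 libraries, with points for libraries and a bar for the group mean. Hes1 of MC lies between 19.1 and 25.1 CPM, above the 8.99 to 15.9 CPM of its controls, and Notch2 of KMC at 41.6 and 61.5 CPM lies above KC at 5.72 and 17.7 CPM.

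In the libraries labelled HC, the question was whether the wild-type HPK1 transgene went with other levels of the same genes. Again 0 of the 10 Notch genes were called by edgeR, where 0.565% of all 18407 genes tested were called, and 0 by DESeq2, where 1.54% were. At an unadjusted p under 0.05, 1 gene, Notch3, was lower, against 7.47% of all genes, and 0 were higher, against 8.39%. The receptors Notch1, Notch2 and Notch3 were each lower in all 3 libraries labelled HC than in both controls, and this count of 3 of 10 compares with 16.1% of all genes, while 0 of 10 were higher in this way, against 17.5%. The median log2 fold change over the 10 genes was -0.08, beside 0.00 for all genes.

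Notch1 had 69.3, 63.2 and 66.7 CPM in the libraries labelled HC and 77.6 and 76.7 CPM in their controls. Its log2 fold change was -0.22 ± 0.09 (SE), with adjusted p = 0.317 in edgeR. Notch3, the receptor of mural cells, had 45.2, 32.0 and 34.7 CPM against 49.8 and 47.8 CPM. Its log2 fold change was -0.39 ± 0.16 (SE), with adjusted p = 0.312 in edgeR. Notch2 had 147.0, 107 and 136 CPM against 153 and 147.3 CPM, so that HC 1 came close to the lower control. Its log2 fold change was -0.21 ± 0.15 (SE), with adjusted p = 0.558 in edgeR. Notch4, the endothelial receptor, had 27.4, 25.6 and 24.3 CPM against 26.3 and 19.3 CPM, and its groups overlapped. Without the male library HC 3, the log2 fold changes were -0.23 for Notch1, -0.26 for Notch2 and -0.35 for Notch3.

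The ligands Jag1, Jag2 and Dll4 had log2 fold changes of 0.19, 0.18 and 0.07, and each overlapped between groups. Jag1 was at 101 CPM in HC 1 and between 67.3 and 69.8 CPM in the other 4 libraries. Without HC 1 the log2 fold change of Jag1 was -0.02. Hes1 had 59.4, 76.1 and 78.1 CPM against 68.0 and 71.7 CPM, with a log2 fold change of 0.03 ± 0.14 (SE) whose sign turned under both scalings by library total. Heyl had 28.7, 18.8 and 15.4 CPM against 35.3 and 25.7 CPM. HC 1 lay above control 2, and the log2 fold change of -0.54 ± 0.28 (SE) had an adjusted p of 0.409 in edgeR. Hey1, a repressor of the same family as Heyl, had 4.37 to 5.88 CPM against 5.68 and 5.91 CPM.

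Summed vascular markers were lower in the libraries labelled HC, and their part in the receptor values was not tested. All 12 endothelial markers had log2 fold changes below 0, with summed levels of 511 to 685 CPM against 696 to 906 CPM in controls. Of 10 mural markers 8 were below 0, with 462 to 622 CPM against 734 to 873 CPM. Set against the mural markers of the same library, Notch3 had 72.7, 69.3 and 66.9 counts per 1000 mural counts in the libraries labelled HC and 57.0 and 65.0 in controls, so on this scale all 3 libraries were above both controls. On the mural scale Notch1, Notch2, Notch4, Jag1, Jag2 and Dll4 also lay above both controls in all 3 libraries, while Hes1, Hey1 and Heyl overlapped. Per 1000 endothelial counts, Notch4 had 39.9, 50.1 and 36.6 counts in the libraries labelled HC and 29.0 and 27.7 in controls. Jag1, Jag2 and Dll4 were above both controls on this scale too, and the other genes overlapped. On the scale of ductal markers the order was the other way: per 1000 ductal counts, Notch3 had 8.62, 4.97 and 5.69 counts against 10.9 and 10.02 in controls, and Notch1 had 13.2, 9.81 and 10.95 against 17.0 and 16.1. Notch2, Hes1 and Hey1 were also lower on the ductal scale, and the other genes overlapped. These ratios were computed after the levels had been seen and carry no test. No share of all genes was computed on these scales. The endothelial and mural sums themselves were lower in the libraries labelled HC, and the ductal sum was higher. Of the 7 ductal markers 6 were above 0, with 5242 to 6446 CPM against 4563 to 4767 CPM, and 1, the tetraspanin Tspan8, was called (adjusted p = 0.0449 in edgeR). All 7 macrophage markers were below 0, with 845 to 1201 CPM against 1373 to 2110 CPM. Stomach and gut markers also differed, with 8914 to 9162 CPM in the libraries labelled HC and 1983 to 3534 CPM in controls. All 8 of those tested had log2 fold changes above 0, and 1 was called. All 5 B cell markers were below 0, and 1 was called. All 4 neutrophil markers tested and 6 of 7 T cell markers were below 0, and all 8 islet markers were above 0. The part of the immune markers in the Map4k1 values was not tested.

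M46 on the background of KC mice was examined by comparing KMC with KC. By edgeR 0 of the 10 Notch genes were called, where 0.0191% of all 15733 genes were called. DESeq2 called 1, Notch2, and 2130 of 27870 genes (7.64%) in all. All 10 had log2 fold changes above 0, where 51.3% of all genes did, and their median was 0.74, beside 0.03 for all genes tested. In 5 of the 10 both KMC libraries were above both KC libraries (Notch2, Notch4, Jag2, Hes1 and Hey1), against 34.4% of all genes, and in 0 of the 10 below them, against 30.9%. At an unadjusted p under 0.05, 1 gene was higher, Notch2, against 16.1% of all genes, and 0 were lower, against 9.48%. The direction depended on single libraries for 2 of the 10: without KC 1 the log2 fold change of Notch1 was -0.29, and without KMC 2 that of Heyl was -0.22.

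Notch2 showed the largest difference of any of the 10 genes in the data. Its levels were 5.72 and 17.7 CPM in KC and 41.6 and 61.5 CPM in KMC. In CPM, both KMC libraries lay above the higher KC library by more than the distance between the KC libraries. As a ratio, the KC libraries were further apart than KMC 1 was from the higher KC library. The log2 fold change was 2.13 ± 0.55 (SE), a ratio of 4.37, with adjusted p = 0.101 in edgeR. The call changed with the fit: DESeq2 gave an adjusted p of 0.00185 and 1 edgeR fit over all 15 libraries, which called 24.2% of all genes, gave 0.00721. Without KC 1 the log2 fold change was 1.53, without KC 2 it was 3.17, without KMC 1 it was 2.36 (adjusted p = 0.00126, called, as were 13.6% of all genes) and without KMC 2 it was 1.82.

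The promoter of Notch2 and those of both RBPJ relatives are shown because Notch2 had the largest difference, and because RBPJ is the protein through which Notch receptors act. Each stretch is taken from the bases before a RefSeq transcript start and stops where a GENCODE exon of the gene begins, on the plus strand of GRCm38.p6 (RefSeq). Capitals mark the core letters of RBPJ binding, TGGGAA, searched on both strands. Of the 10 Notch genes 7, the receptors and ligands, were matched to RefSeq promoters. Of these, 0 of the 7 held the core in the 250 bases before the start, where 21.6% of all 32851 promoters did. The target genes Hes1, Hey1 and Heyl had no promoter sequence at hand and were not searched. Notch2 is at chr3:98013288-98013526, Rbpj at chr5:53590096-53590213 and Rbpjl at chr2:164402944-164403140.
Notch2: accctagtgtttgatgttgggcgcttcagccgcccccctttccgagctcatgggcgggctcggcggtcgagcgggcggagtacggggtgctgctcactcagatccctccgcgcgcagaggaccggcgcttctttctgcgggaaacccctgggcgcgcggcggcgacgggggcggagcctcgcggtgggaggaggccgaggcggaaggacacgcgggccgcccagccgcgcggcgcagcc
Rbpj: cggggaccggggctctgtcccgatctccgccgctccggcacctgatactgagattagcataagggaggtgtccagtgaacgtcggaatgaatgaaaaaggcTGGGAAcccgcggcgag
Rbpjl: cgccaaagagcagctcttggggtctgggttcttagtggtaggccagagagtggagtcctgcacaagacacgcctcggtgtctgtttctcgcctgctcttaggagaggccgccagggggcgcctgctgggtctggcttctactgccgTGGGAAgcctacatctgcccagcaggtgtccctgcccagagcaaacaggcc

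Counted from the RefSeq transcript start, which lies beyond the end of the stretch shown, the core begins 149 bases before it in Rbpj and 104 bases before it in Rbpjl. A second core of Rbpj, 65 bases before that start on the opposite strand, is outside the stretch shown. GENCODE has Rbpj begin at chr5:53466152, far upstream, so the Rbpj stretch lies within the gene as GENCODE draws it. Of 54 promoters of other Notch pathway genes, 15 held the core. A match of letters is a description and not a binding site.

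Hey1, the next in size, had 0.817 and 0.929 CPM in KC and 1.55 and 2.597 CPM in KMC. These levels rest on few counts, and the log2 fold change of 1.24 ± 0.56 (SE) had an adjusted p of 0.208 in edgeR. In the fit over all 15 libraries it was 1.19 with adjusted p = 0.0188, a call, in a fit that called 3609 of 14909 genes. Hes1 had 6.74 and 5.42 CPM in KC and 7.42 and 13.8 CPM in KMC, with a log2 fold change of 0.81 ± 0.41 (SE) and adjusted p = 0.247 in edgeR. KMC 1 was close to KC 1, and the difference came mainly from KMC 2: without KMC 2 the log2 fold change was 0.31. Notch4 had 3.88 and 5.15 CPM in KC and 5.92 and 9.97 CPM in KMC. Its log2 fold change of 0.81 ± 0.41 (SE) had an adjusted p of 0.247 in edgeR. Jag2 had 1.91 and 3.02 CPM against 3.73 and 4.42 CPM, and its adjusted p was 0.331 in edgeR.

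For the other genes the KC libraries themselves were far apart. Notch1 had 13.7 and 37.8 CPM in KC and 33.0 and 29.4 CPM in KMC, so both KMC libraries lay within the range of KC. Notch3 had 3.27 and 10.2 CPM in KC against 9.63 and 13.4 CPM, and Jag1 had 9.94 and 21.0 CPM against 16.0 and 28.4 CPM. Dll4, the endothelial ligand, had 2.45 and 1.74 CPM against 2.21 and 4.53 CPM. Heyl had 11.3 and 10.5 CPM against 9.26 and 15.8 CPM. All 5 overlapped between KC and KMC, with log2 fold changes of 0.20 to 0.76.

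Scaling mattered more here than in the other comparisons. Acinar genes took 35.5 to 38.9% of counts in KC and 14.3 to 27.3% in KMC, and with scaling by library totals alone, all genes tested had a median log2 fold change of 1.47. Under that scaling 7 of the 10 Notch genes were called, and so were 4714 of all 15733 genes (30%). Relative to that median, Notch2 was at 2.03, Hey1 at 1.29, Hes1 at 0.93 and Notch1 at 0.09. With libraries scaled by their total without acinar genes the median was 1.12, and Notch2 stood 2.03 above it. Markers of stromal and immune cells moved with these values, and their part in them was not tested. All 11 acinar genes were below 0, and all 7 fibroblast markers were above 0, with 464 to 912 CPM in KC and 2166 to 6202 CPM in KMC. All 7 macrophage markers (151 to 161 CPM against 531 to 1344 CPM) and all 9 mural markers tested (74.1 to 104 CPM against 169 to 316 CPM) were above 0 too. Of 12 endothelial markers 11 were above 0, with 193 to 196 CPM against 208 to 346 CPM. The 7 ductal markers summed to 384 to 453 CPM against 527 to 758 CPM, with 6 above 0 and 1 below, at -1.40. Per 1000 mural counts, Notch4, Jag1, Jag2, Dll4, Hes1 and Heyl were lower in both KMC libraries than in both KC libraries. Notch2 was higher on this scale, and Notch1, Notch3 and Hey1 overlapped. Per 1000 endothelial counts, Notch2, Notch4, Hes1 and Hey1 were higher in both KMC libraries, Heyl was lower and the others overlapped. No test was made of these ratios, and no share of all genes was computed on either scale. The mural and endothelial sums that they are divided by were themselves higher in both KMC libraries.

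**Figure D3:**
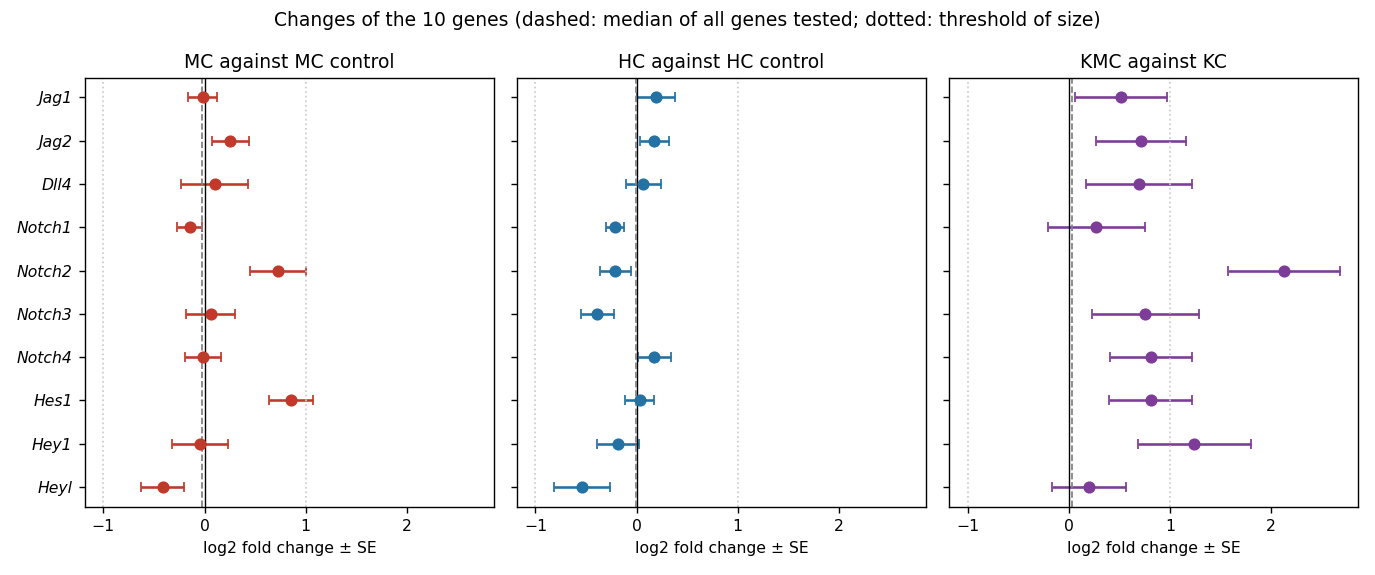
Log2 fold change of each Notch gene with its standard error (bars) in MC, the libraries labelled HC and KMC, each against its own controls, with the median of all genes tested dashed and the threshold of size dotted. Notch2 of KMC, at 2.13, is the farthest from 0, and all 10 points of KMC lie to the right of 0.

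The effects were then compared with each other. The MC effect differed from that of the libraries labelled HC most for Notch2, by 0.93 ± 0.35 (SE) on the log2 scale (adjusted p = 0.169 in edgeR), and for Hes1, by 0.82 ± 0.28 (SE) (adjusted p = 0.138 in edgeR). Of the 10 genes 0 passed this test, where 2.18% of all 14884 genes did. By DESeq2 0 passed, where 6.66% of all genes did, and both genes had an unadjusted p under 0.05, against 20.8% of all genes in edgeR. The direction of the HC effect is that of the libraries as labelled, in which Map4k1 was lower than in their controls. Without MC control 2, both were called, at 1.31 for Notch2 and 1.02 for Hes1, in a setting that called 1584 of 14885 genes (10.6%). Between KMC and MC, the difference of effects was 1.33 ± 0.63 (SE) for Notch2, with adjusted p = 0.319 in edgeR, and 1.23 ± 0.50 (SE) for Hey1, with adjusted p = 0.298 in edgeR. For Hes1 it was -0.10 ± 0.43 (SE), with a sign that turned under both scalings by library total. Again 0 of the 10 genes passed, where 0% of all 14464 genes did and 16.2% had an unadjusted p under 0.05. Without KC 2, 2 genes were called, Notch1 at 1.296 and Notch2 at 2.40, and 959 genes (6.5%) were called in all. Age and, between MC and the other tables, the library kit differ along with genotype, and cannot be told apart from it.

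The ratio of Notch2 to Notch1 counts within a library does not depend on scaling. It was 1.03, 1.31 and 1.36 in MC and 0.510, 1.01 and 0.497 in its controls. In the libraries labelled HC it was 2.12, 1.69 and 2.03, and in their controls 1.97 and 1.92. In KC it was 0.418 and 0.469, and in KMC 1.26 and 2.09. All MC libraries were above all of their controls, though MC 1 only narrowly, both KMC libraries were above both KC libraries, and the HC groups overlapped. Per kb of transcript the same ratio was 0.378 and 0.424 in KC and 1.14 and 1.89 in KMC, so that Notch1 was the more abundant transcript in KC and Notch2 in KMC. These ratios were chosen after the levels had been seen, and no test was made of them.

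**Figure D4:**
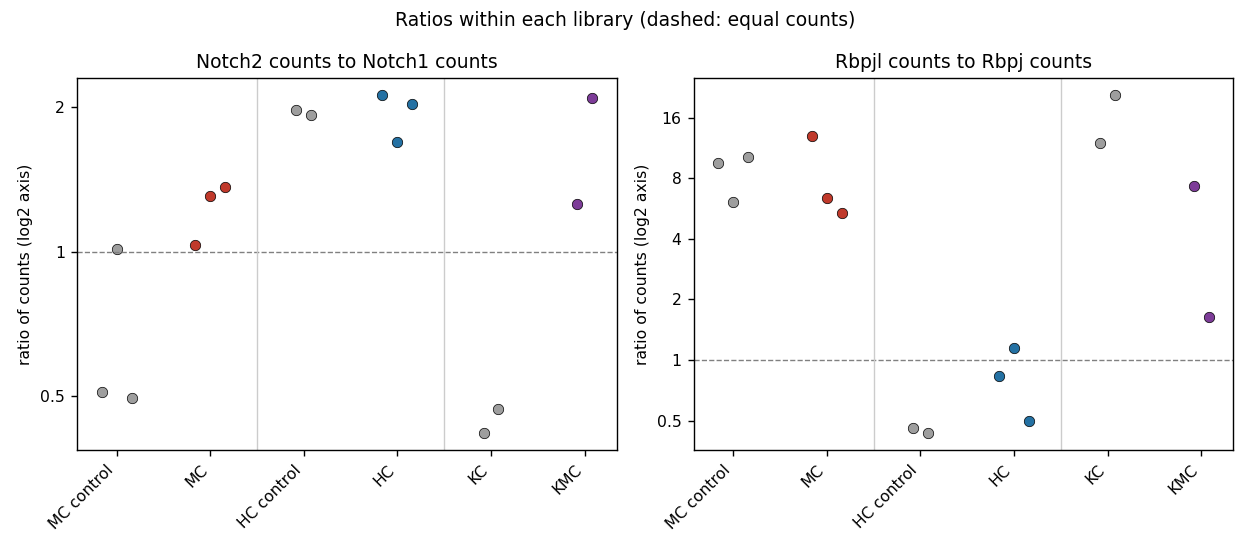
Ratio of Notch2 to Notch1 counts (left) and of Rbpjl to Rbpj counts (right) in each library, on log2 axes, with points for libraries and a dashed line at equal counts. Notch2 to Notch1 lies below 0.5 in both KC libraries and above 1 in both KMC libraries, and Rbpjl to Rbpj lies between 5.38 and 20.8 in MC, its controls and KC but between 0.432 and 1.14 in the HC table.

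Rbpj, the DNA-binding partner of Notch, and its relative Rbpjl were read on the same footing. Rbpj had 27.0, 30.1 and 33.1 CPM in MC and 25.4, 31.4 and 21.7 CPM in controls, which overlap. In the libraries labelled HC it had 55.2, 62.1 and 63.9 CPM against 89.3 and 71.5 CPM, with a log2 fold change of -0.41 ± 0.13 (SE) and adjusted p = 0.208 in edgeR. In KMC it had 26.4 and 45.6 CPM against 13.9 and 15.1 CPM in KC, a log2 fold change of 1.31 ± 0.37 (SE) and adjusted p = 0.112 in edgeR. The groups of Rbpj thus did not overlap in both of those comparisons, in opposite directions. Rbpjl, the acinar relative, had 351, 193 and 178 CPM in MC against 242, 191 and 223 CPM, 45.8, 71.1 and 31.8 CPM in the libraries labelled HC against 41.2 and 30.9 CPM, and 194 and 74.2 CPM in KMC against 167 and 314 CPM in KC. Rbpjl overlapped between groups in every comparison. Its counts were 12.03 and 20.8 times those of Rbpj in KC, and 7.36 and 1.63 times in KMC. In the HC table the ratio was 0.432 to 1.14 over all 5 libraries, against 5.38 to 13.0 in the 6 libraries of the MC table.

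The rest of the pathway was described with a list of 51 other genes, of which 48 were tested in MC, 48 in the libraries labelled HC and 47 in KMC. Dll3, Dlk2 and Hes5 are not among the genes of the MC table and were too low to be tested in the others, and Dner was too low in KMC. By edgeR 0 of them were called in any of these comparisons, and by DESeq2 0 in MC, 0 in HC as labelled and 7 in KMC, against 3.13%, 1.54% and 7.64% of all genes. In MC the list had a median log2 fold change of -0.03, with 23 genes above 0 and 25 below, and at an unadjusted p under 0.05 there were 0 higher and 4 lower, against 9.2% and 5.46% of all genes. Groups did not overlap for 2 of 48 genes with MC higher and 4 of 48 with MC lower, against 10.9% and 9.89% of all genes. The smallest p values among the lower genes were those of Mib2, a ubiquitin ligase that acts on ligands (-0.42 ± 0.14), of Dlk1, an atypical ligand (-1.30 ± 0.45, from 6 to 37 counts per library), and of the acetyltransferase Kat2a (-0.34 ± 0.12), all with groups that did not overlap and adjusted p = 0.267, 0.270 and 0.277 in edgeR. Among the higher genes they were those of the glycosyltransferase Mfng (0.53 ± 0.24), the coactivator Maml2 (0.55 ± 0.30) and the receptor-cutting protease Adam17 (0.34 ± 0.20).

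In the libraries labelled HC the median of the list was 0.00, with 24 genes on each side, and at an unadjusted p under 0.05 there were 2 higher and 4 lower, against 8.39% and 7.47% of all genes. Groups did not overlap for 6 of 48 genes with HC higher and 10 of 48 with HC lower, against 17.5% and 16.1% of all genes. The lower genes with the smallest p were Adam17 (-0.51 ± 0.12), the glycosyltransferase Lfng (-0.59 ± 0.15) and Rbpj, with adjusted p = 0.139, 0.157 and 0.208 in edgeR, and all 3 had groups that did not overlap. The higher ones were Sox9, a ductal transcription factor linked to Notch (0.34 ± 0.14), Dlk1 (1.62 ± 0.67) and the ligand Dll1 (0.35 ± 0.18). Sox9 had 201, 225 and 171 CPM against 155 and 160 CPM in controls, with adjusted p = 0.312 in edgeR. In MC it had 29.5 to 38.3 CPM against 20.6 to 35.4 CPM, and in KMC 32.6 and 32.9 CPM against 35.5 and 28.2 CPM in KC.

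In KMC the median of the list was 0.14, with 28 genes above 0 and 19 below, and at an unadjusted p under 0.05 there were 5 higher and 3 lower, against 16.1% and 9.48% of all genes. The higher genes with the smallest p were Neurl1a, a ubiquitin ligase (2.47 ± 0.66), Numbl, a relative of the Notch inhibitor Numb (1.62 ± 0.45), and Maml2 (1.61 ± 0.45), with adjusted p = 0.104, 0.108 and 0.111 in edgeR. The lower ones were the glycosyltransferase Rfng (-1.48 ± 0.41), the γ-secretase subunit Psen2 (-1.46 ± 0.43) and Dtx1, a Deltex ubiquitin ligase (-1.74 ± 0.58), with adjusted p = 0.106, 0.116 and 0.137 in edgeR. DESeq2 called these 6 genes and Rbpj. Groups that did not overlap were found with KMC higher for 22 of 47 genes and with KMC lower for 10 of 47, against 34.4% and 30.9% of all genes.

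**Figure D5:**
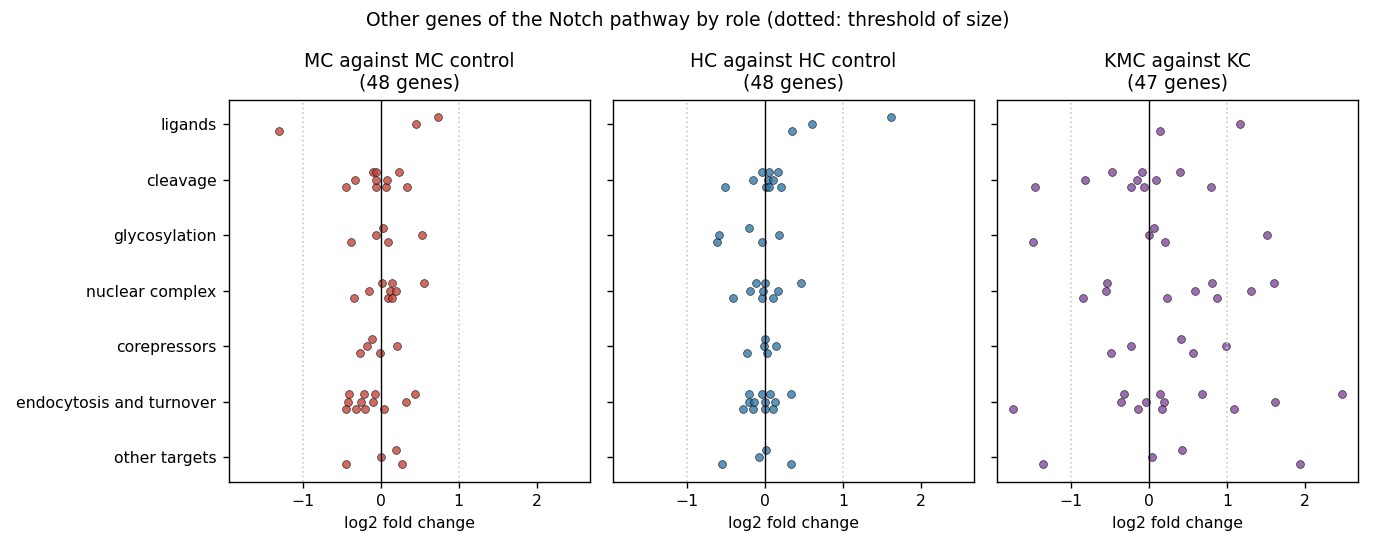
Log2 fold changes of the other Notch pathway genes by role in MC (48 genes), the libraries labelled HC (48 genes) and KMC (47 genes), each point a gene, with the threshold of size dotted. The points of KMC spread from -1.74 (Dtx1) to 2.47 (Neurl1a), wider than the -1.30 to 0.74 of MC and the -0.61 to 1.62 of HC.

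The genes whose pattern over the 15 libraries was most like that of 4 of the Notch genes were found among 10930 genes, with each table centred on its own mean. For Notch1 they were Cul9 (r = 0.98), Bcl11a (r = 0.96) and Asb3 (r = 0.96), and for Hes1 they were Itm2c (r = 0.97), Clec2d (r = 0.94) and Arl6ip1 (r = 0.94). For Jag1 they were Bmt2 (r = 0.89), Sertad2 (r = 0.88) and Alox5 (r = 0.88), and for Dll4, the lowest of these 4, they were Dnajc8 (r = 0.84), Tcf4 (r = 0.81) and Reep3 (r = 0.80). Among the 10 Notch genes themselves, Notch2 ran most closely with Jag2 (r = 0.89) and Notch3 (r = 0.85), and Notch1 with Notch3 (r = 0.83), whereas Hes1 and Heyl had the lowest value (r = -0.30). These values describe 15 libraries that share their tables' depth, scaling and tissue composition.

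In the mouse genome (GRCm38) the receptors lie at chr2:26457903-26516663 (Notch1), chr3:98013527-98150361 (Notch2), chr17:32120820-32166852 (Notch3) and chr17:34564268-34588503 (Notch4). The ligands lie at chr2:137081456-137116644 (Jag1), chr12:112907819-112929776 (Jag2) and chr2:119325784-119335962 (Dll4), and the targets at chr16:30064384-30067796 (Hes1), chr3:8663359-8667256 (Hey1) and chr4:123233556-123249875 (Heyl). Counts were summed over the exons of each gene, so transcripts of 1 gene were not told apart.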

How the data were processed

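RNA was sequenced from 15 pools of mouse pancreas. Per the submitters' processing notes, bcl2fastq 2.17.14, STAR 2.6.1a, HTSeq 0.6.1, DESeq2 and mm10 were used, and according to the paper reads were summarized per GENCODE gene on GRCm38. The authors deposited raw counts per gene, without normalization, in 3 tables. A deposited table of the authors' own comparison (DESeq2 fold changes and p-values) was not used. Samples were grouped by the labels. An allele that KC and KMC mice share is not reported here. Within each table, filterByExpr removed low genes, TMM set the scale and edgeR 4.0.16 (glmQLFit, glmQLFTest, R 4.3.3) tested each gene, with Benjamini-Hochberg adjustment over all genes. Calls had an adjusted p no higher than 0.05 and a log2 fold change of 1 or more in size. The square root of F divided into the fitted change gave its standard error. Likeness was Pearson's r of log2 CPM (prior count 2) among genes of at least 2 CPM on average in each table. Transcript lengths came from GENCODE M21, in which 3 of the 10 identifiers have another version than in the files. Alternatives were DESeq2 1.42.0, other scalings and filters, a newer edgeR fit, 1 fit over 15 libraries, the replicate number as a block and leaving out each library. The tests were first run on simulated counts. All 10 Notch genes were named in each comparison, with the 3 other pathway genes of smallest p in each direction. The Notch genes, lists and ratios were chosen with earlier results of these data known. Labels do not say that pools were independent beyond their mice, so p-values measure the spread between pools. No pair of libraries of a group agreed within sampling noise.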

Additional observations from a re-analysis of the deposited data

Results flagged for a closer look

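Notch2 was marked because its libraries stood on opposite sides of their controls in 2 comparisons: both KMC libraries were above both KC libraries (log2 fold change 2.13), whereas all 3 libraries labelled HC were below both of their controls (-0.21). Neither passed the test (adjusted p = 0.101 and 0.558 in edgeR), HC 1 was at 147.04 CPM beside 147.34 CPM in control 2, and sex and age cannot be told apart from genotype in KMC. The difference between the KMC effect and that of the libraries labelled HC was not tested. Groups had at most 3 libraries, too few for a test of single outlying values.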

How the results depend on the processing

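Of the 10 Notch genes, 0 were called in the libraries labelled HC under any of the 13 alternatives, and in MC 0 under 13 of 14. Leaving out 1 library gave 0 to 2 calls in MC, 0 to 1 in KMC, 0 to 2 in the difference of the MC and HC effects and 0 to 2 in that of the KMC and MC effects. These extremes came without MC control 2, KMC 1, MC control 2 and KC 2. In KMC, 7 genes were called with library totals alone, 6 with totals without acinar genes, 1 with DESeq2, 2 in 1 fit over 15 libraries and 1 with the replicate block, where 4714, 4314, 2130, 3609 and 2464 genes were called in all. The scaling by totals moved all genes with them, while the cause of the other changes was not tested.

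Replicate numbers were shared by groups, and whether they pair the libraries could not be decided. Same-number correlations of the deviations were 0.07, 0.30 and -0.30 in MC, 0.19 and 0.17 in the HC table and 0.05 and 0.05 in KMC. In MC, pairs of different number had -0.39 to 0.35. In a group of 2 libraries the deviations mirror each other, so the values of the HC table and of KMC cannot settle this. With the replicate number as a block, all-gene calls went from 104 to 339 in the HC table and from 3 to 2464 in KMC, and from 325 to 0 in the difference of the MC and HC effects. With that block Hes1 of the libraries labelled HC was at -0.0530, and the MC and HC effects differed by -0.0125 for Dll4 and -0.0701 for Heyl.

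Other signs turned too. With totals alone MC gave 0.16 for Notch1, 0.27 for Notch4, 0.30 for Jag1 and 0.25 for Hey1, and with totals without acinar genes 0.0288, 0.14, 0.17 and 0.12, where the median of all genes was 0.29 and 0.16. Hes1 of the libraries labelled HC was -0.0023 and -0.0075 under these scalings. The MC and HC effects then differed by 0.14 and 0.0160 for Notch4 and by 0.16 and 0.0295 for Jag1, and by -0.0141 for Dll4 with DESeq2 size factors and -0.0130 with DESeq2. The KMC and MC effects differed by 1.301 and 1.02 for Hes1, beside a median of 1.19 and 0.96.

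Leaving out 1 library gave log2 fold changes in MC from -0.15 to 0.30 for Notch3, -0.14 to 0.0754 for Notch4, -0.11 to 0.0888 for Jag1, -0.14 to 0.33 for Dll4 and -0.23 to 0.0580 for Hey1. In the libraries labelled HC the ranges were -0.0325 to 0.42 for Notch4, -0.0241 to 0.30 for Jag1, -0.0238 to 0.12 for Dll4 and -0.0577 to 0.14 for Hes1. In KMC they were -0.29 to 1.19 for Notch1 and -0.22 to 0.53 for Heyl. The difference of the MC and HC effects ranged from -0.0163 to 0.16 for Jag2, -0.22 to 0.26 for Dll4, -0.0696 to 0.25 for Hey1 and -0.13 to 0.41 for Heyl, and that of the KMC and MC effects from -0.20 to 1.296 for Notch1 and -0.55 to 0.28 for Hes1. Where this left 1 library in a group, that library was assumed to vary like the others.

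DESeq2 called 475 genes in MC, 482 in the HC table and 2130 in KMC, where edgeR called 0, 104 and 3. The 12 counts of Hey1 in KC 1 and the 877 counts of all 10 genes there limit what could be seen in KMC.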
